A study of Sus scrofa with 36 samples.

Results

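The genes described here are those that sense, activate and answer to cortisol in the adrenal gland of the pig. They are the glucocorticoid receptor NR3C1 and the mineralocorticoid receptor NR3C2, the enzymes HSD11B1 and HSD11B2, and 6 genes known to be induced by glucocorticoids, namely FKBP5, TSC22D3, PER1, DUSP1, SGK1 and ZBTB16. Of 10160 genes that could be named in the deposited table of log2 intensities, these are 10, and they were represented by 30 of the 45348 probes in it. A probe was assigned to a gene by the gene name in the scanner files, or, where this name was missing, by the RefSeq transcript or the description given for the probe. The adrenal glands came from 36 castrated male growing pigs of 3 breeds, Creole (CR), Large White (LW) and their Large White x Creole cross (F1), with 12 pigs per breed. In each breed, 6 pigs were sampled in thermoneutral conditions (TN) at 24 °C and 6 after heat stress (HS), which gave 18 TN and 18 HS pigs. The sample labels give 30 °C for the HS pigs, whereas the growth protocol gives 32 °C for 5 days. Slaughter of the TN pigs preceded the warming of the room and that of the HS pigs followed it, which means that temperature and day of slaughter cannot be told apart. The paper also reports that the pigs ate less after the warming than before it. No TN group was held to the reduced intake, so that heat and feed intake cannot be told apart either. Within a breed the pigs came from blocks of littermates and shared pens, but pen, day and parents are not in the labels, so that all p-values measure the spread between individual pigs only.

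Cortisol is made in the adrenal cortex and reaches all tissues in blood. Inside a cell it binds NR3C1, a transcription factor held by chaperones until the hormone arrives, and also NR3C2, which binds cortisol and aldosterone with high affinity. HSD11B1 regenerates cortisol from inactive cortisone, and HSD11B2 performs the opposite step. FKBP5 is a co-chaperone that lowers the hormone affinity of NR3C1 and thereby closes a feedback loop within the cell. TSC22D3 encodes GILZ, an anti-inflammatory mediator, PER1 is a component of the circadian clock, and DUSP1 is a phosphatase that switches off MAP kinases. SGK1 is a kinase that raises sodium transport, and ZBTB16 is a zinc finger transcription repressor. DUSP1, SGK1 and PER1 are also known to respond quickly to stimuli other than glucocorticoids.

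Each gland was hybridised to 1 single-colour array, on 5 slides scanned on 1 day. Between 42436 and 48060 probes of an array were well above background, and the arrays correlated with one another at 0.982 to 0.996. All 7 markers of steroid-making cortex, including STAR and CYP17A1, and 5 of 6 markers of chromaffin cells, including CHGA, had values on all 36 arrays. Of the 30 probes, 29 were well above background on all 36 arrays and none was saturated. The remaining one, NR3C1 probe 6, passed on 19 arrays. Probes of a gene are numbered here from the brightest to the dimmest, and levels are not compared between probes.

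The probes that carry the differences described below are shown by the first 30 of their 60 bases, 5′ to 3′, read from the scanner files. These bases identify the probes. They were not aligned to transcripts, and no position of a probe within an exon or transcript was available.
DUSP1 probe 1: gcagcagtgttgggtttgtttgttttttaa
DUSP1 probe 2: gaaacttcatgcttgacatacctaccagtg
SGK1 probe 1: tcccaacacacacttttttgtgtgtgtgat
SGK1 probe 2: ccaccattttaatgtactgtaattaacatg
TSC22D3 probe 1: cgacaccttatcctgatgttatgtctccag
TSC22D3 probe 2: ttccctgcttggaggggatgtggtttccgt
NR3C1 probe 1: cagaaaagggaagttgtgccttttatagct
NR3C1 probe 4: aagtcattgaacctgaggtgttgtatgcag
NR3C1 probes 1 and 4 are both shown because they differed in their response to breed. NR3C1 probe 2 has the same 60 bases as probe 1, and HSD11B1 probes 6 and 7 share a run of 58 bases, so that these pairs are not separate measurements of a transcript.

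In HS pigs the expression of SGK1, DUSP1 and, at the limit of the threshold, TSC22D3 was lower than in TN pigs, while no probe of the receptors, the HSD11B enzymes, FKBP5, PER1 or ZBTB16 passed the test. With limma and a threshold of 0.05 on the FDR adjusted p-value, 5 of the 30 probes (16.7%) were differentially expressed between HS and TN, against 0.911% of all 45348 probes. These 5 probes belong to SGK1, DUSP1 and TSC22D3 only. The genes were chosen with earlier results of these data known, so that the shares are a description and no test of the genes as a set. All 5 were lower in HS, as were 0.501% of all probes. All 13 probes of the 6 induced targets had a lower mean in HS, with a median difference of -0.37 log2, whereas 50% of all probes were below 0. Probes of 1 gene are not independent of each other, so that the 13 probes stand for 6 genes. The decrease was not general among glucocorticoid targets. Of 24 other measured genes known to be induced by glucocorticoids, 15 were below 0 and 9 above 0. Their median was -0.04 and none was called. Of the 9 receptor probes, 7 were above 0 and none was called, and of the 8 enzyme probes, 7 were below 0 and none was called. RNA came from an aliquot of ground adrenal tissue, so that in all of these differences fewer cells of a type, another share of cortex and medulla in the sample, and less RNA per cell cannot be told apart.

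**Figure D1:**
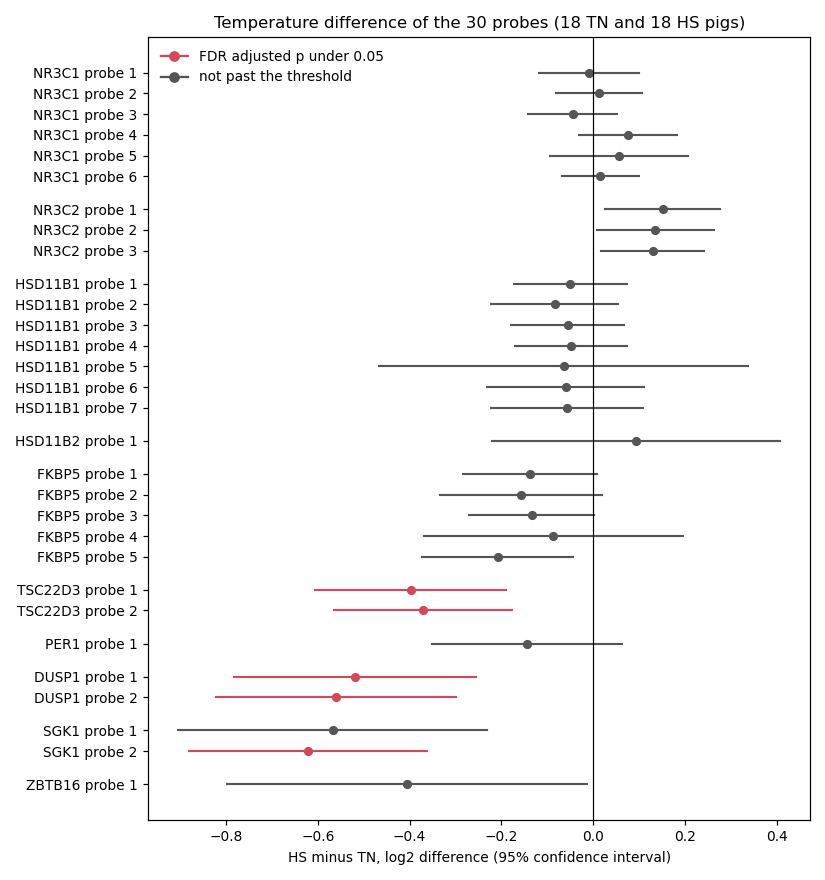
Difference between HS and TN pigs (log2, x axis) for each of the 30 probes (y axis), from limma with breed in the model. Points are estimates and bars 95% confidence intervals. The 5 red probes, of TSC22D3, DUSP1 and SGK1, lie between -0.37 and -0.62, and the intervals of all NR3C1 and HSD11B probes include 0.

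NR3C1 (chr2:144822937-144956451 in Sscrofa11.1) encodes the receptor through which most effects of cortisol pass. Probe 1 ranged from 9.70 to 10.08 log2 in TN pigs, with a median of 9.90, and from 9.42 to 10.18 in HS pigs, with a median of 9.91. The groups overlapped almost fully, and 10 of 18 HS pigs were not below the TN mean of their breed. The difference was -0.01 ± 0.05 (SE), with a 95% confidence interval from -0.12 to 0.10. The 6 probes lay between -0.04 and 0.08, and the interval reaching farthest from 0, that of probe 5, ended at 0.21.

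NR3C2 (chr8:80303172-80669050) encodes the mineralocorticoid receptor, which in most cells binds cortisol as readily as aldosterone. Probe 1 ranged from 8.23 to 8.96 in TN pigs (median 8.58) and from 8.43 to 9.09 in HS pigs (median 8.67). HS values were on the high side, since 13 of 18 HS pigs were not below the TN mean of their breed, but the ranges overlapped. The difference was 0.15 ± 0.06 (95% interval 0.03 to 0.28), with an FDR adjusted p-value of 0.245. Probes 2 and 3 gave differences of 0.14 and 0.13, with adjusted p-values of 0.330 and 0.270. For probe 3, 1 TN value was missing and that pig was left out of the fit. All 3 unadjusted intervals lay above 0, and none passed the correction over all probes.

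HSD11B1 (chr9:133231451-133278396) makes active cortisol inside the cell. Probe 1 ranged from 11.70 to 12.22 in TN pigs (median 11.97) and from 11.48 to 12.34 in HS pigs (median 11.98). The medians were close, and both the lowest and the highest pig belonged to the HS group. The difference was -0.05 ± 0.06 (interval -0.17 to 0.07), and the 7 probes lay between -0.05 and -0.08. HSD11B1 probe 5 varied most between pigs, with an SD of 0.57 in TN and 0.68 in HS, while the SD of probe 1 was 0.15 in TN and 0.22 in HS. Its lowest value, 7.90, came from 1 F1 pig in HS, and its interval ran from -0.47 to 0.34.

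HSD11B2 (chr6:28084087-28089256) inactivates cortisol and protects NR3C2 from it in tissues that respond to aldosterone. Its single probe ranged from 10.69 to 12.94 in TN pigs (median 11.87) and from 11.36 to 12.64 in HS pigs (median 11.96). Both extremes came from TN pigs of the Creole breed. The difference was 0.09 ± 0.15, and its interval from -0.22 to 0.41 was the widest among the genes outside the induced targets apart from that of HSD11B1 probe 5.

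SGK1 (chr1:29625786-29753619) had the lowest difference of the 10 genes. SGK1 probe 2 ranged from 9.40 to 11.24 in TN pigs, with a median of 9.92, and from 8.88 to 9.68 in HS pigs, with a median of 9.30. All 18 HS pigs were below the TN mean of their breed, 10 HS pigs were below the lowest TN pig and 10 TN pigs were above the highest HS pig. The expression fell by 0.62 ± 0.13 log2, a 1.54-fold decrease, with an adjusted p-value of 0.0146. SGK1 probe 1 ranged from 9.71 to 12.51 in TN (median 10.35) and from 9.20 to 10.76 in HS (median 9.98). Its difference was as large, at -0.57 ± 0.17, but did not pass the threshold (adjusted p-value 0.0837), and 17 of 18 HS pigs were below the TN mean of their breed. The highest TN value of both probes came from the same pig, F1 TN replicate 2. Without this pig the differences were -0.45 for probe 1 and -0.54 for probe 2, with adjusted p-values of 0.0825 and 0.0132.

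DUSP1 (chr16:51457924-51461095) fell by a similar amount. DUSP1 probe 2 ranged from 12.26 to 14.08 in TN pigs (median 13.03) and from 12.15 to 13.27 in HS pigs (median 12.51). The ranges overlapped, but 17 of 18 HS pigs were below the TN mean of their breed. The decrease was 0.56 ± 0.13 for probe 2, or 1.47-fold, with an adjusted p-value of 0.0239. For probe 1, DUSP1 ranged from 12.61 to 14.62 in TN (median 13.51) and from 12.53 to 13.91 in HS (median 12.89), with a difference of -0.52 ± 0.13 and an adjusted p-value of 0.0417. The array carries an unnamed spot with the same 60 bases as DUSP1 probe 1. This spot differed by -0.56 ± 0.12 (adjusted p-value 0.0198) and correlated with probe 1 at 0.97 over the 36 pigs after removal of group means.

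TSC22D3 (chrX:88171325-88233583) was lower in HS with both of its probes, which were assigned through their descriptions. TSC22D3 probe 1 ranged from 12.18 to 13.40 in TN pigs (median 12.90) and from 11.84 to 13.24 in HS pigs (median 12.47). Of the 18 HS pigs, 15 were below the TN mean of their breed and 7 were below the lowest TN pig. The decrease was 0.40 ± 0.10 for probe 1 (1.32-fold) and 0.37 ± 0.10 for probe 2 (1.29-fold). The adjusted p-values of 0.0498 and 0.0497 were at the threshold itself, and under other processing settings probe 1 passed in 9 of 17 and probe 2 in 6 of 16, with the difference below 0 in each. For probe 2, TSC22D3 ranged from 6.33 to 7.56 in TN (median 7.02) and from 6.15 to 7.22 in HS (median 6.57), and 16 of 18 HS pigs were below the TN mean of their breed.

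**Figure D2:**
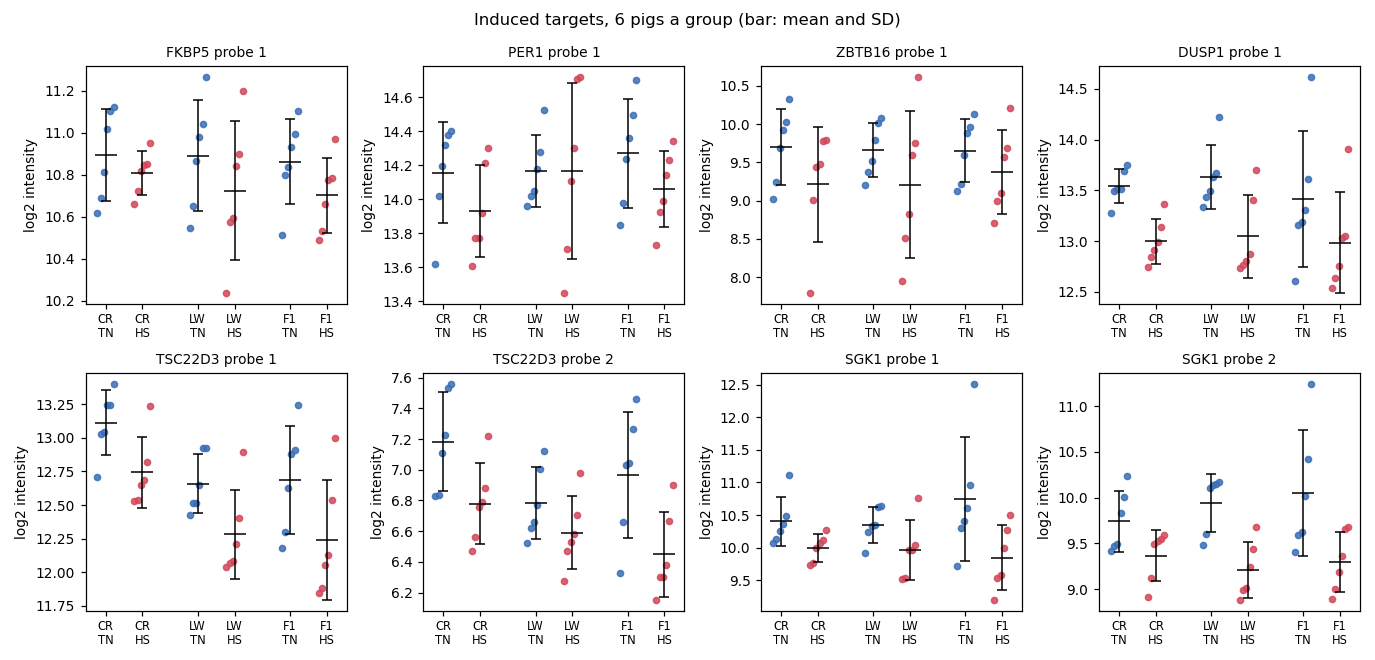
Log2 intensity (y axes) of 8 probes of the induced targets in each pig of the 6 breed and temperature groups (x axes), TN in blue and HS in red. Black bars are the mean and SD of 6 pigs. HS means are below TN means of the same breed in every panel for SGK1, DUSP1 and TSC22D3, and F1 TN replicate 2 is the highest pig of both SGK1 panels.

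FKBP5 (chr7:31441764-31550704) had lower means in HS with each of its 5 probes, and none passed the test. FKBP5 probe 1 ranged from 10.51 to 11.26 in TN pigs (median 10.90) and from 10.24 to 11.20 in HS pigs (median 10.78). The groups overlapped widely, although 14 of 18 HS pigs were below the TN mean of their breed. The difference was -0.14 ± 0.07 (interval -0.28 to 0.01, adjusted p-value 0.409). Over the 5 probes the differences lay between -0.09 and -0.21, with adjusted p-values between 0.214 and 0.851. FKBP5 probe 5 had the lowest difference, and 16 of 18 HS pigs were below the TN mean of their breed with that probe.

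PER1 (chr12:53361863-53376723), measured by 1 probe, ranged from 13.62 to 14.70 in TN pigs (median 14.22) and from 13.45 to 14.72 in HS pigs (median 14.05). The HS range contained the whole TN range. Its difference was -0.14 ± 0.10 (interval -0.35 to 0.06, adjusted p-value 0.582).

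ZBTB16 (chr9:41639536-41839254), also measured by 1 probe, varied more between HS pigs than between TN pigs. It ranged from 9.01 to 10.33 in TN (median 9.74, SD 0.40) and from 7.79 to 10.61 in HS (median 9.46, SD 0.73). Of the 18 HS pigs, 7 were below the lowest TN pig, and the highest pig of all was an HS pig. The difference was -0.41 ± 0.19 (interval -0.80 to -0.01), with an adjusted p-value of 0.347. An unnamed spot with the same 60 bases differed by -0.40 ± 0.18 and correlated with it at 0.98, so that the spread of ZBTB16 was seen on both spots.

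The differences of SGK1 and DUSP1 were below 0 within slides. On the 4 slides where temperature could be separated from breed, with 4 TN and 4 HS pigs each, the difference of SGK1 probe 2 lay between -0.44 and -0.78, and that of DUSP1 probe 2 between -0.25 and -0.68. TSC22D3 probe 1 lay between -0.11 and -0.65 within slides, and SGK1 probe 1 between -0.01 and -1.12. On the remaining slide, which held 4 arrays, the 2 factors could not be separated. When pigs were left out one at a time, SGK1 probe 2 and DUSP1 probe 2 passed the threshold in all 36 cases, with adjusted p-values of at most 0.0285 and 0.0463. Both lost their call without slide 1, 2, 3 or 4, where the adjusted p-values were 0.0504 to 0.0877 for SGK1 probe 2 and 0.0522 to 0.193 for DUSP1 probe 2. The differences without single slides lay between -0.55 and -0.69 for SGK1 probe 2 and between -0.48 and -0.68 for DUSP1 probe 2. With single pigs left out, DUSP1 probe 1 passed in 15 of the 36 cases, TSC22D3 probe 1 in 9 and TSC22D3 probe 2 in 13. Leaving out 1 of 17 pigs left 2 of the 30 probes called, while 229 to 366 of all probes were called in the same fits, against 413 with all pigs. These pigs were CR TN replicates 1, 3 and 5, CR HS replicates 2 and 5, LW TN replicates 1, 2 and 6, LW HS replicates 2, 3 and 4, F1 TN replicates 2 and 3, and F1 HS replicates 2, 3, 5 and 6. Without any one of 7 others, CR TN replicates 2 and 6, CR HS replicate 3, LW HS replicate 6, F1 TN replicates 4 and 5 and F1 HS replicate 4, 3 probes were called.

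The response to temperature was then compared between the breeds. No probe of the 10 genes had a temperature by breed interaction (adjusted p-values from 0.982 to 0.995, and 0 of 30 at an unadjusted p-value lower than 0.05), and among all 45348 probes 0% passed and 4.22% reached an unadjusted p-value lower than 0.05. Within a breed no member was called, with 6 pigs against 6. Among all probes, 0% were called in CR and F1 pigs and 0.011% in LW pigs, all of these lower in HS. Unadjusted p-values below 0.05 were found for 6 of the 30 probes in CR, 4 in LW and 5 in F1 pigs, against 4.79%, 6.29% and 12.3% of all probes. DUSP1 probe 1 differed by -0.54 ± 0.23 in CR, -0.59 ± 0.23 in LW and -0.43 ± 0.23 in F1 pigs. TSC22D3 probe 1 differed by -0.37 ± 0.18, -0.38 ± 0.18 and -0.45 ± 0.18 in the same order. TSC22D3 probe 2 was less even, at -0.40 ± 0.17 in CR, -0.20 ± 0.17 in LW and -0.52 ± 0.17 in F1 pigs. SGK1 probe 1 differed by -0.41 ± 0.29 in CR, -0.39 ± 0.29 in LW and -0.90 ± 0.29 in F1 pigs. SGK1 probe 2 differed by -0.38 ± 0.22 in CR, -0.73 ± 0.22 in LW and -0.75 ± 0.22 in F1 pigs. The F1 values of SGK1 and DUSP1 depended on F1 TN replicate 2. Without this pig the F1 difference was -0.55 for SGK1 probe 1, -0.51 for SGK1 probe 2 and -0.19 for DUSP1 probe 1, and that of TSC22D3 probe 1 was -0.46. NR3C2 probe 1 differed by 0.27 ± 0.11 in CR (adjusted p-value 0.947), 0.11 ± 0.11 in LW and 0.08 ± 0.11 in F1 pigs. The absence of a passing interaction does not show that the breeds respond alike, since the intervals within a breed were wide, for example from -1.49 to -0.32 for SGK1 probe 1 in F1 pigs and from -0.97 to 0.20 in LW pigs.

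Breed differences of these genes were few. By the F test over the 3 breeds, 2 of the 30 probes (6.67%) were called, against 10.6% of all probes, so that the share was not above the background. At an unadjusted p-value below 0.05 there were 4 of 30, against 24.8% of all probes. Between LW and CR, 1 probe was called higher in LW and 1 lower, against 5.98% and 5.5% of all probes. TSC22D3 was lower in LW than in CR pigs. TSC22D3 probe 1 ranged from 12.53 to 13.40 in CR pigs (median 12.93), from 12.04 to 12.93 in LW pigs (median 12.47) and from 11.84 to 13.24 in F1 pigs (median 12.42). The medians of LW and F1 pigs were close to each other, and the highest LW pig was level with the CR median. The difference of LW from CR was -0.46 ± 0.13 (adjusted p-value 0.0139), and that of F1 from the mean of both parent breeds was -0.24 ± 0.11 (adjusted p-value 0.409). TSC22D3 probe 2 differed by -0.29 ± 0.12 between LW and CR and did not pass (adjusted p-value 0.101).

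NR3C1 differed between breeds with 1 of its 6 probes. NR3C1 probe 4 ranged from 8.10 to 8.61 in CR pigs (median 8.37), from 8.48 to 8.75 in LW pigs (median 8.66) and from 8.24 to 8.86 in F1 pigs (median 8.49). LW pigs had the highest median, and the ranges of CR and LW pigs overlapped between 8.48 and 8.61. The difference of LW from CR was 0.29 ± 0.06 (adjusted p-value 0.0020). The other 5 NR3C1 probes lay between -0.06 and 0.00 for the same comparison, with adjusted p-values of at least 0.633. Neither HSD11B gene was called for breed. HSD11B2 differed by -0.23 ± 0.19 between LW and CR (interval -0.61 to 0.16), and the 7 HSD11B1 probes were all below 0, between -0.04 and -0.40.

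**Figure D3:**
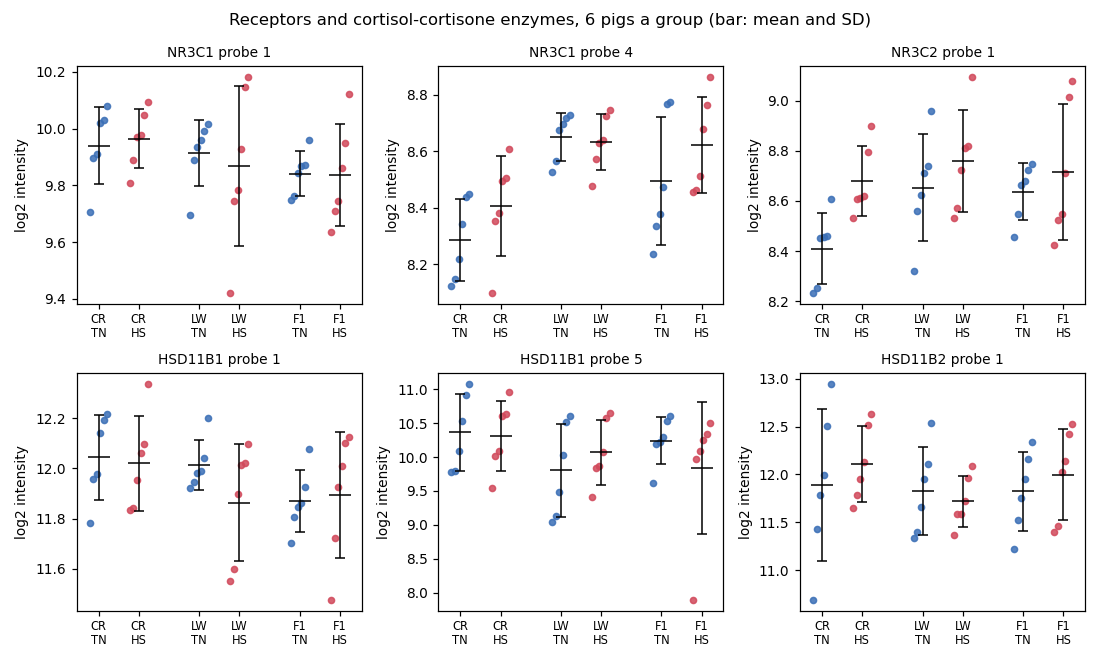
Log2 intensity (y axes) of the receptor and HSD11B probes in each pig of the 6 breed and temperature groups (x axes), TN in blue and HS in red. Black bars are the mean and SD of 6 pigs. NR3C1 probe 4 is higher in LW than in CR pigs at both temperatures, while NR3C1 probe 1 is level across the groups, and HSD11B1 probe 5 has 1 F1 HS pig at 7.90.

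The members were next compared between pigs, after the mean of each of the 6 groups was removed, to see whether pigs high in 1 member were high in another. Probes of the same gene were first set against each other. The 2 DUSP1 probes correlated at 0.95, the 2 TSC22D3 probes at 0.81 and the 2 SGK1 probes at 0.74. The 15 pairs of NR3C1 probes correlated between -0.09 and 0.80, with a median of 0.24, and even the pair of identical sequence correlated at 0.70, so that the small variation of NR3C1 between pigs was only partly shared between its probes.

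Of the 45 pairs of genes, each represented by its brightest probe, 2 passed a permutation test of 100000 resamples within groups, adjusted over the 45 pairs. FKBP5 and PER1 tended to be high in the same pigs (Pearson r = 0.60, permutation p = 0.0010, adjusted p = 0.036, Spearman rho = 0.53, permutation p = 0.0025, n = 36). NR3C1 tended to be low where ZBTB16 was high (r = -0.61, permutation p = 0.0016, adjusted p = 0.036, rho = -0.51, permutation p = 0.0062). Neither passed by rho alone, with adjusted p-values of 0.082 and 0.093. Without the 2 pigs farthest from the median of FKBP5 and of NR3C1, the coefficients were 0.45 and -0.42, so that the sign and most of the size remained, but neither pair passed (adjusted p-values 0.37 and 0.37). FKBP5 and PER1 correlated at 0.61 in TN and 0.60 in HS pigs, whereas NR3C1 and ZBTB16 correlated at -0.28 in TN and -0.71 in HS pigs. The difference between these coefficients was not tested. With slide means removed as well, the coefficients were 0.70 and -0.64. Over all probes of the pair, FKBP5 and PER1 correlated between 0.50 and 0.68, but NR3C1 and ZBTB16 between -0.61 and 0.15, so that the latter relation was not shared by all 6 NR3C1 probes. As a description of how common such values are, 0.044% of all other probes correlated with FKBP5 as highly as PER1 did, and 0.214% correlated with NR3C1 as negatively as ZBTB16 did.

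DUSP1 and SGK1, which fell together with heat stress, had the highest coefficient between pigs (r = 0.62, permutation p = 0.0068, adjusted p = 0.068, rho = 0.33, permutation p = 0.086). With slide means removed its adjusted p-value was 0.0478. Without the 2 pigs farthest from the DUSP1 median the coefficient was 0.24. These pigs, F1 TN replicate 2 and F1 HS replicate 4, were above their group means in both genes. PER1 and ZBTB16 correlated at 0.50, NR3C1 and PER1 at -0.54, and HSD11B1 and HSD11B2 at -0.48, and none of these passed (adjusted p-values 0.11, 0.068 and 0.055). Their rho was 0.39, -0.48 and -0.50. The coefficient of HSD11B1 and HSD11B2 was -0.15 with values scaled to the 75th percentile of each array. The 2 values of a pair come from the same array, so that a property of the gland or of the array is shared by both.

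**Figure D4:**
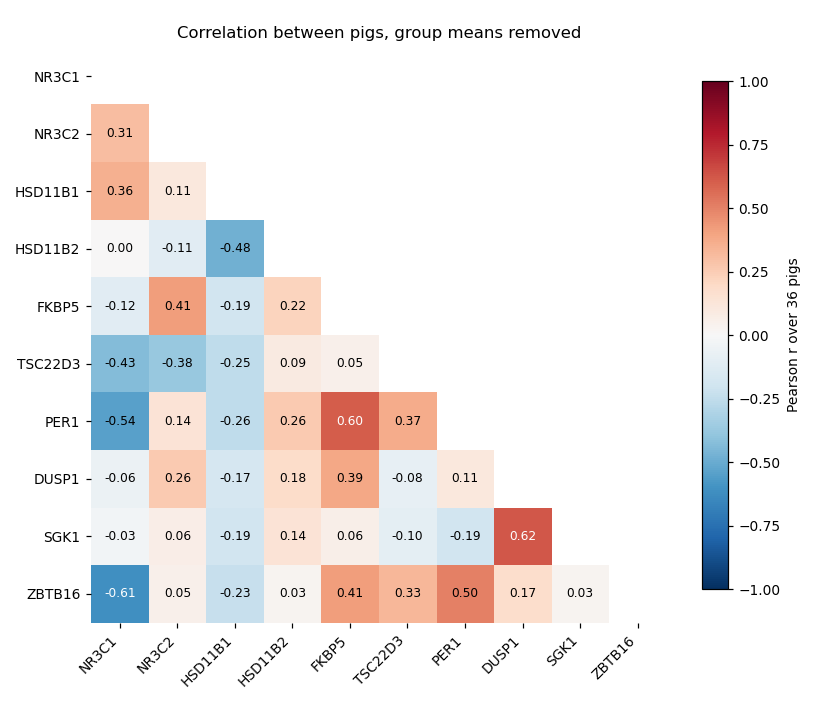
Pearson correlation between pigs (colour scale and printed values, n = 36) for each pair of the 10 genes on both axes, after group means were removed. The strongest positive pairs are DUSP1 with SGK1 (0.62) and FKBP5 with PER1 (0.60), and the strongest negative pair is NR3C1 with ZBTB16 (-0.61).

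**Figure D5:**
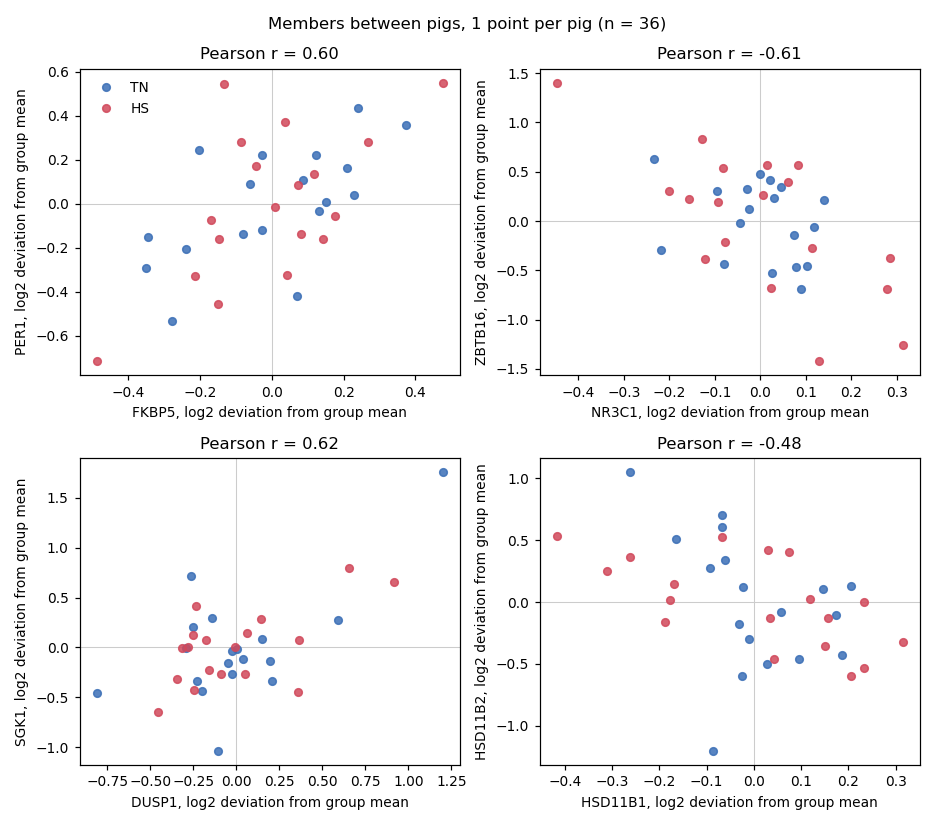
Deviation of each pig from its group mean (log2, both axes) for 4 pairs of genes, TN pigs in blue and HS pigs in red. The FKBP5 and PER1 pair spreads along a rising line (r = 0.60), NR3C1 and ZBTB16 along a falling one (r = -0.61), and the pair of DUSP1 and SGK1 has 1 TN pig far to the upper right.

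For each gene, the 3 other named genes with the most similar pattern between pigs were listed, again as a description. Those of DUSP1 were EGR1 (r = 0.83), CD83 (0.77) and IER2 (0.72), of which EGR1 and IER2 are immediate-early genes. ZBTB16 was closest to HIF3A (0.77), which was itself on the list of other glucocorticoid targets, then to TESK1 (0.73) and KIAA0232 (0.73). HSD11B2 was closest to ATP6V0D1 (0.82), a subunit of the vacuolar proton pump, then to CHCHD10 (0.72) and PTPN6 (0.70). HSD11B1 was closest to IL33 (0.73), MAGEH1 (0.72) and ITM2B (0.72). SGK1 was closest to IFRD1 (0.72), AGER (0.72) and KLF13 (0.67), and TSC22D3 to PDLIM5 (0.77), CCND3 (0.77) and SIRPA (0.74). NR3C1 was closest to ZC3H6 (0.80), UNC50 (0.77) and SMC3 (0.77), and NR3C2 to SSBP2 (0.75), DDX6 (0.75) and TRPC1 (0.72). FKBP5 was closest to EPB41L2 (0.69), NME4 (0.64) and SART3 (0.62), and PER1 to PTPN1 (0.68), TRMT2A (0.67) and FIZ1 (0.65).

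Other genes of the pathway were read from 6 lists, with the brightest probe standing for each gene. Among the chaperones that hold the unliganded receptor, 9 of 10 had a probe that could be named, and 1 of these was called. For STIP1 no probe could be named, so that it was not examined here. The paper reports STIP1 as down regulated in the adrenal glands under heat stress. HSPA8, the constitutive HSC70, fell from 15.98 ± 0.24 (SD, n = 18) in TN to 15.40 ± 0.24 in HS, a decrease of 0.57 ± 0.08 with an adjusted p-value of 4e-04. Neither HSP90 gene, whose products bind the receptor directly, was called, with differences of -0.05 ± 0.05 for HSP90AA1 and 0.04 ± 0.04 for HSP90AB1. Of the 11 coregulators, all measured, none was called, and the 2 largest differences were -0.19 for SMARCA4 and 0.15 for NRIP1. Of 6 genes of cortisol handling, 3 were measured and none was called, with 0.29 for AKR1D1 and 0.08 for SERPINA6, the cortisol-binding globulin of blood, as the largest differences.

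Among 30 other genes known to be induced by glucocorticoids, 24 were measured, 15 were below 0, 9 were above 0 and none was called for temperature. The median of this list was -0.04, and its extremes were -0.20 for DDIT4 and 0.20 for KLF15. Of 9 measured clock genes other than PER1, none was called, with -0.20 for NPAS2 and -0.14 for ARNTL as the largest differences. Of 13 measured immediate-early genes, 10 were below 0 and 1 was called. EGR1 fell from 10.06 ± 0.52 to 9.45 ± 0.45, a decrease of 0.61 ± 0.16 with an adjusted p-value of 0.0498. Over the 6 lists, 2 of 69 genes passed for temperature, against 0.911% of all probes. For breed, 6 of 69 genes passed the F test over the 3 breeds, a share that was not above the 10.6% of all probes. With all 239 probes of these genes in place of the brightest, 33 passed, a share above that of all probes, so that the comparison turned with the choice of probe. LW minus CR was 2.33 for MT1A, a metal-binding metallothionein, -0.38 for MAOA, which degrades monoamines, -0.44 for the clock repressor CRY1 and -0.55 for the chaperone HSPA4, all past the threshold. For RGS2 and ANXA1 it was 0.31 and -0.08 and did not pass. PDK4 (0.58) and CEBPB (-0.29) passed for LW minus CR but not by the F test.

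Markers of the cell types of the gland were read beside these differences. For temperature, all 7 markers of steroid-making cortex were below 0 in HS, between -0.02 and -0.25, and 1 was called, namely NR5A1, the transcription factor SF-1, with a decrease of 0.25 ± 0.06 (adjusted p-value 0.0253). The summed intensity of these 7 markers ranged from 19.75 to 20.04 log2 in TN and from 19.69 to 20.07 in HS. All 5 measured chromaffin markers were also below 0, between -0.02 and -0.35, and none was called. Their summed intensity ranged from 18.97 to 19.57 in TN and from 18.93 to 19.52 in HS. No marker of adipocytes, blood, immune cells, endothelium, stroma or the zona glomerulosa was called for temperature, and the largest difference was -0.67 ± 0.29 for HBB of blood (adjusted p-value 0.271). For breed, the 6 adipocyte markers went in both directions. LW minus CR was -1.62 for ADIPOQ, -0.90 for PLIN1, -1.33 for FABP4, -0.59 for CIDEC and 0.91 for LPL, all past the threshold for this contrast, and 0.05 for LEP, which was not. The summed intensity of the 6 adipocyte markers ranged from 11.91 to 13.19 in CR and from 11.81 to 12.43 in LW pigs. The chromaffin markers CHGA, CHGB and PNMT were higher in LW pigs, by 0.16, 0.53 and 0.38, all past the threshold for this contrast. The 7 cortex markers went in both directions. LW minus CR was -0.34 for STAR and -0.78 for HSD3B1, which passed, and -0.02 for CYP11A1, -0.21 for CYP21A2, 0.12 for CYP17A1, 0.06 for NR5A1 and 0.07 for MC2R, which did not. CD163, a macrophage marker, passed the F test over the 3 breeds (adjusted p-value 0.0307), and its LW minus CR of 0.33 did not pass. The part of these cell types in the differences of the 10 genes was not tested.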

How the data were processed

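The values are log2 intensities of 36 single-colour Agilent arrays. According to the labels and the methods of the study, the authors read the scanned images with Agilent Feature Extraction 10.10.1.1, filtered probes, applied quantile normalization and took log2, and deposited the resulting table of 45348 probes. The deposited scanner files hold the raw intensity of 60305 probes per array, and within each array they ranked the probes as the table does (lowest Spearman coefficient 1.0 after rounding). All 36 table columns were matched to samples by name.

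Samples were grouped by the breed and temperature given in the labels. Replicate numbers follow accession order and pair no samples. Differences were tested with limma 3.58.1 in R 4.3.3, with breed and temperature as fixed terms, and p-values were adjusted by Benjamini-Hochberg over all 45348 probes. Within-breed contrasts and the interaction came from a fit with 1 mean per group. The random effects of pen, slaughter day and parents that the methods name could not be fitted, since they are not in the labels. Pigs that shared a pen, a litter or a day were therefore treated as independent. With these terms in its model, the paper reports fewer differentially expressed adrenal probes than the 413 called here. In data simulated from the 36 arrays, with 45261 complete probes, a change of 0.5 log2 between 18 and 18 pigs was recovered for 88% of changed probes and a change of 0.25 for 62%, with 7 false calls. The simulated noise was independent between pigs and probes, without effects of slide, pen, litter or day. The changed probes were drawn from all complete probes, so that these shares do not give the recovery for the member probes. Correlations used Python with numpy and pandas. The number of arrays limits the precision, and intervals are at the 95% level.

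Named genes were all 10 members with every probe, the genes of other lists whose brightest probe was past the threshold for temperature or breed, the 2 largest temperature differences of a list with none, and the 3 genes closest to each member. The members and lists were chosen with earlier results of these data known. Gene positions are those of RefSeq on Sscrofa11.1. Other settings tried were values recomputed from the scanner files, other normalizations and background corrections, filters, slide and array position, array weights, another variance prior, no breed term, gene means, and the omission of slides and pigs.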

Additional observations from a re-analysis of the deposited data

Results flagged for a closer look

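Of 60 sets of 6 pigs (10 genes with the brightest probe, 6 groups), 2 held a pig farther from the others than the 95% critical value of Dixon's test, where chance gives about 1 in 20. Both concern DUSP1 probe 1. In F1 HS pigs, replicate 4 was at 13.91 and the nearest other pig at 13.05, a gap of 0.626 of the range. In LW TN pigs, replicate 1 was at 14.22 and the nearest other pig at 13.67, also a gap of 0.626. Both gaps barely exceeded the limit.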

How the results depend on the processing

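No paired analysis was possible because the labels give the pigs no replicate numbers and name no litter or pen. The count of 5 called probes for temperature was 3 with values recomputed from the scanner files, with the 75th percentile of the processed signal, with position on the slide and without the breed term, where 379, 328, 300 and 286 of all probes were called, and 6 with slide as a fixed or random block, where 899 and 820 were called, against 413. With gene means 3 genes were called, SGK1, DUSP1 and TSC22D3, which are also the 3 genes of the 5 probes. The count was 1 without slide 1 and 0 without slide 2, 3 or 4, where fewer arrays enter the fit and the calls over all probes fell to 171, 40, 34 and 53. Leaving out single pigs gave 2 to 5. The count for breed was 2, and it was 1 with gene means, 1 without slide 2, 3 or 5 and 3 without slide 4. No setting gave a call for the interaction or within a breed. The differences of SGK1, DUSP1 and TSC22D3 stayed below 0 in all settings, with adjusted p-values of 0.00772 to 0.0877 for SGK1 probe 2, 0.0157 to 0.193 for DUSP1 probe 2 and 0.00957 to 0.234 for TSC22D3 probe 1 apart from single pigs. SGK1 probe 1 passed with slide as a fixed (0.0474) or random block (0.0495), with gene means (0.0264) and without slide 5 (0.0412). The NR3C1 difference of -0.01 turned to 0.0009 with the 75th percentile, 0.0018 with array weights, 0.018 with gene means, and 0.013, 0.0006 and 0.0091 without slide 1, 2 or 5, was -0.061 without slide 4, and lay between -0.028 and 0.020 without single pigs. That of HSD11B2 was -0.068 without slide 4. The 2 called pairs became 0 by Spearman's rho and 0 without the 2 farthest pigs. Over the other lists, the count for temperature rose from 2 to 4 with all probes and to 5 with slide as a fixed block, which adds NCOA2, SMARCA4 and KLF4, and the count for breed rose from 6 to 33 with all 239 probes. Without slide 3 the difference of TSC22D3 between LW and CR was -0.43 (adjusted p-value 0.102), and without slide 5 it was -0.46 (0.0519). The cause of these changes was not tested.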
